A study of Mus musculus with 14 samples.

Results

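The difference between Lmna knockout and control liver that mice on chow and mice on a fat- and sugar-rich diet have in common was measured on 12 of the 14 arrays of this series, 6 knockout against 6 control livers, with diet kept in the model. All mice were male C57BL/6 mice carrying Alb-cre, in which the albumin promoter drives Cre, so that floxed DNA is removed in hepatocytes. How much is removed in other cells of the liver was not measured here. The knockout groups were LMNA flx/flx; Alb-cre+ (KO below), with both Lmna copies floxed, and the control groups were LMNA flx/+; Alb-cre+ (HET below), with 1 copy floxed. Each genotype had 3 mice on Normal Chow and 3 on High Fat Diet (HFD), which was the Surwit diet with 42 g/L of carbohydrate in the water, 55% fructose and 45% sucrose, each for 14 weeks. HET mice on chow were 26.4, 26.4 and 24 weeks old and KO mice on chow all 38.9 weeks, while HET mice on HFD were 30.4, 30 and 30 weeks and KO mice on HFD all 35.3 weeks. KO mice were thus older on both diets, by 13.3 weeks on chow and 5.17 weeks on HFD on average, and within a diet age and genotype cannot be told apart. The remaining 2 arrays, from LMNA +/+; Alb-cre+ mice (WT) on chow aged 27 and 24.6 weeks, entered the fit only to estimate the spread. Hepatocyte markers such as Alb, Ttr and Apoa1 were at high levels in all 14 livers, with Alb between 13.36 and 13.53 on the log2 scale. However, Apoa1, Hnf4a, Hpd and Tat were lower in all 3 KO than in all 3 HET livers on HFD. The same held for Tat and Tdo2 on chow.

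Lmna encodes lamins A and C, intermediate filament proteins that line the inner nuclear membrane, bind chromatin and give the nucleus its stiffness. Cells that lose A-type lamins can show misshapen or ruptured nuclei, and DNA that meets cytosolic sensors can start an interferon response. The liver is also where growth hormone, released in a sex-specific rhythm, keeps male-biased and female-biased genes apart, and where fat is stored in droplets when uptake or synthesis exceeds use.

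Averaged over both diets, 1447 of 22180 genes were higher in KO liver (6.52%) and 644 were lower (2.9%), at an adjusted p under 0.05 in limma with Benjamini-Hochberg adjustment over all genes. By this test 69.2% of calls were rises. That split depends on the scaling: rises made up 80.6% when arrays were centred on the median of all probe sets, 56.8% after a second quantile normalization and 28.6% when arrays were centred on the median of probe sets with 1 gene symbol, which moved the median of all genes by -0.13 and raised the falls to 2684. Rises were also the larger changes, with 421 genes at least 2-fold higher and 51 at least 2-fold lower among those called. On chow alone 320 genes rose (1.44%) and 106 fell (0.478%), and on HFD alone 1221 rose (5.5%) and 456 fell (2.06%). The chow and HFD comparisons have no array in common.

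A core of 240 genes rose (1.08%) and 42 fell (0.189%) in the mean and on each diet taken alone. Of the genes called on chow, 66.2% were also called on HFD in the same direction. Of those called on HFD, 16.82% were called on chow in the same direction. All but 2 of the 284 genes called on both diets moved the same way, the exceptions being Tmem79 and Tnfaip8l1. Across the 2091 genes called in the mean, 2061 had the same sign on both diets. Among the 240 shared rises the median was 1.33 on chow and 1.52 on HFD, and 148 of them rose more on HFD. Among the 42 shared falls the median was -0.997 on chow and -0.91 on HFD. All 282 genes also passed in the mean in every fit without 1 array. The number of genes passing on both diets was less stable, since 3 against 3 arrays decide each diet: rises numbered 133 without HET array F2, 143 without KO array H2 and 126 without KO array I1, and falls 22 without F1, 20 without F2, 22 without H2 and 18 without I1. F1 and F2 stood apart from the third HET array on chow on the second principal component, and without both of them 79 of the 240 rises and 8 of the 42 falls remained. In every fit without 1 array, 99 of the 240 rises and 11 of the 42 falls were still called on both diets. Unless said otherwise, "on both diets" below means called in the mean and on each diet in the fit of all arrays.

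**Figure D1:**
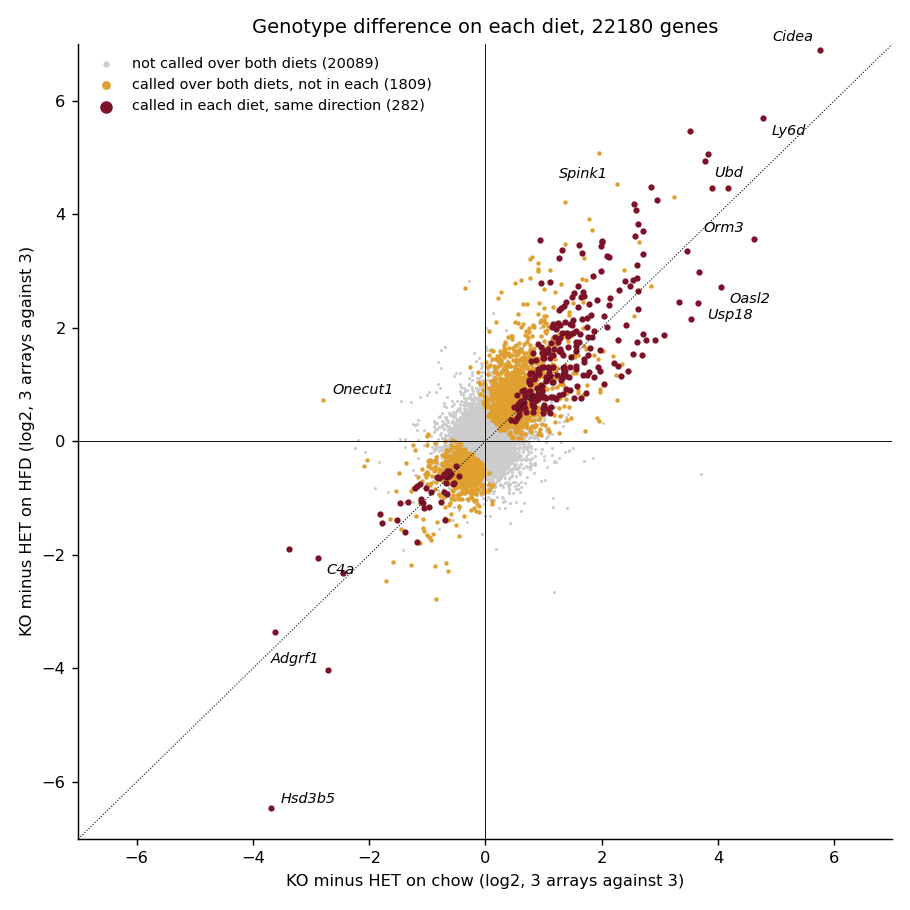
KO minus HET difference of each gene on chow (x axis, log2) against that on HFD (y axis, log2), with 3 arrays against 3 on each axis and the dotted line at equal differences. Genes called on both diets (dark red, 282) lie in the lower left and upper right corners, and Onecut1 is the labelled gene whose difference has opposite signs on the 2 diets.

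Without regard to calls, 946 genes had all 3 KO values above all 3 HET values on each diet (4.27%) and 572 had them all below (2.58%). Among the 1447 called rises 842 were separated in this way, and among the 644 called falls 384. In 235 of the 240 shared rises and 37 of the 42 shared falls, all 6 KO arrays also lay beyond all 6 HET arrays across diets. The WT arrays, which no KO minus HET contrast uses, lay on the HET side: both were below all 6 KO arrays in 236 of the 240 shared rises and above them in all 42 shared falls, against 2089 and 1709 genes of all 22180. The size of the shared difference varied among KO livers. Averaged over the 240 rises, the deviation from HET of the same diet was 1.30 in H1, 1.55 in H2 and 1.81 in I1 on chow, and 1.76 in C2, 1.65 in C3 and 1.83 in C4 on HFD. The 6 HET arrays deviated by -0.05 to 0.08 and the 2 WT arrays by -0.07 and -0.06. H1 thus had the smallest rise of the 6 KO livers, and the cause of this spread was not tested. These genes were chosen by the same arrays, so the averages are a description.

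**Figure D2:**
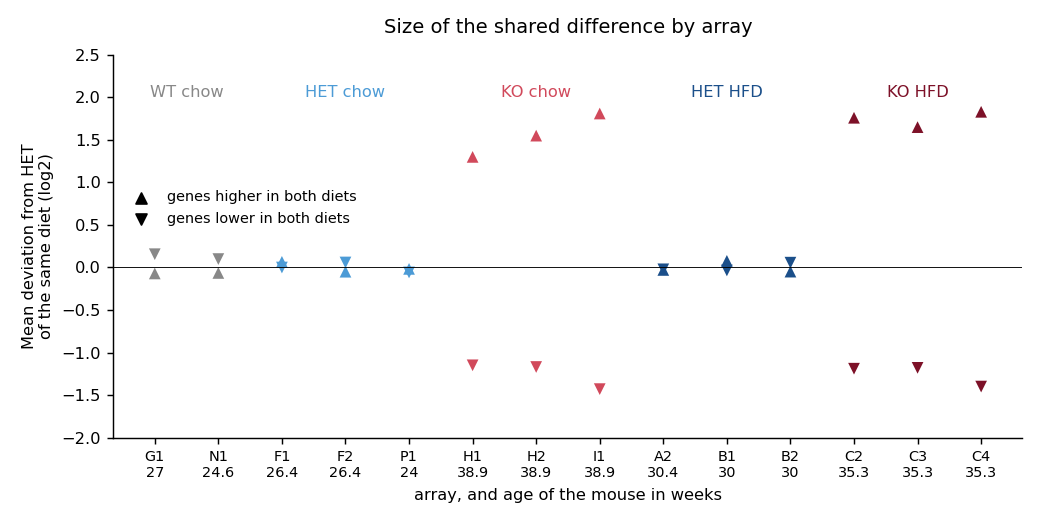
Mean deviation (y axis, log2) of the 240 genes higher in both diets (upward triangles) and the 42 lower in both (downward triangles) from the HET mean of the same diet, for each array with the mouse's age in weeks (x axis). WT arrays are set against HET on chow. For the rises KO arrays lie between 1.30 and 1.83 and no HET or WT array exceeds 0.08. For the falls KO arrays lie between -1.43 and -1.15, and the WT arrays are at 0.16 and 0.10.

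The linear effect of age could be set apart from genotype only through the unequal age gaps on the 2 diets and the small age differences within the HET groups, which on chow set F1 and F2 against P1. With age as a term in a fit of the 12 arrays, 279 genes were higher and 78 lower in KO liver, and 322 of these 357 had been called without it in the same direction. All 240 shared rises stayed positive and all 42 shared falls negative with the age term, and 96 and 8 of them were called. These genes were chosen for a call in the same direction on each diet, which favours a kept sign. The signs are therefore a description and no test of age. The part of age in each result below was tested only in this linear form.

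The targeted gene came first. The single Lmna probe set lay above the array medians of 2.21 to 2.30 in every liver. It read 4.29, 4.40 and 4.25 in HET and 4.09, 3.78 and 3.67 in KO on chow. On HFD it read 4.07, 4.08 and 4.30 in HET and 3.90, 4.07 and 3.99 in KO. Chow groups did not overlap, while on HFD the highest KO value reached the lowest HET values. The mean difference of -0.31 ± 0.09 (SE) had an adjusted p of 0.0386 in limma, and an exact two-sided permutation test of genotype within diet gave p = 0.01, where 0.005 was the smallest the design allows. This call was lost without any of the HET arrays F1, F2, A2, B1 and B2 or the KO arrays H2, I1, C2 and C4 (adjusted p up to 0.10). Whether the probe set covers the floxed part was not analysed here. In bulk liver, Lmna of non-hepatocytes also contributes, and here and below fewer cells of a type cannot be told apart from less RNA per cell.

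Among 15 measured genes of the nuclear lamina and inner nuclear membrane, Lmna was the one that fell and Tmem43 the one that rose (6.67% each). The median difference was 0.04 against -0.02 over all genes. Over all genes, 6.52% were called higher and 2.9% lower in the mean, and 1.08% and 0.189% on both diets. These shares are the background for the count of every list here and below. Tmem43 encodes LUMA, an inner nuclear membrane protein that binds lamins and emerin. It read 5.46, 5.18 and 5.34 in HET and 6.29, 6.69 and 6.91 in KO on chow, and 5.14, 5.10 and 5.29 in HET and 6.72, 6.72 and 6.83 in KO on HFD. Every KO value exceeded every HET and WT value, and the rise of 1.44 ± 0.10 (adjusted p = 2.45e-06) was 1.31 on chow and 1.58 on HFD. With the age term it was 1.74 (adjusted p = 0.00816).

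**Figure D3:**
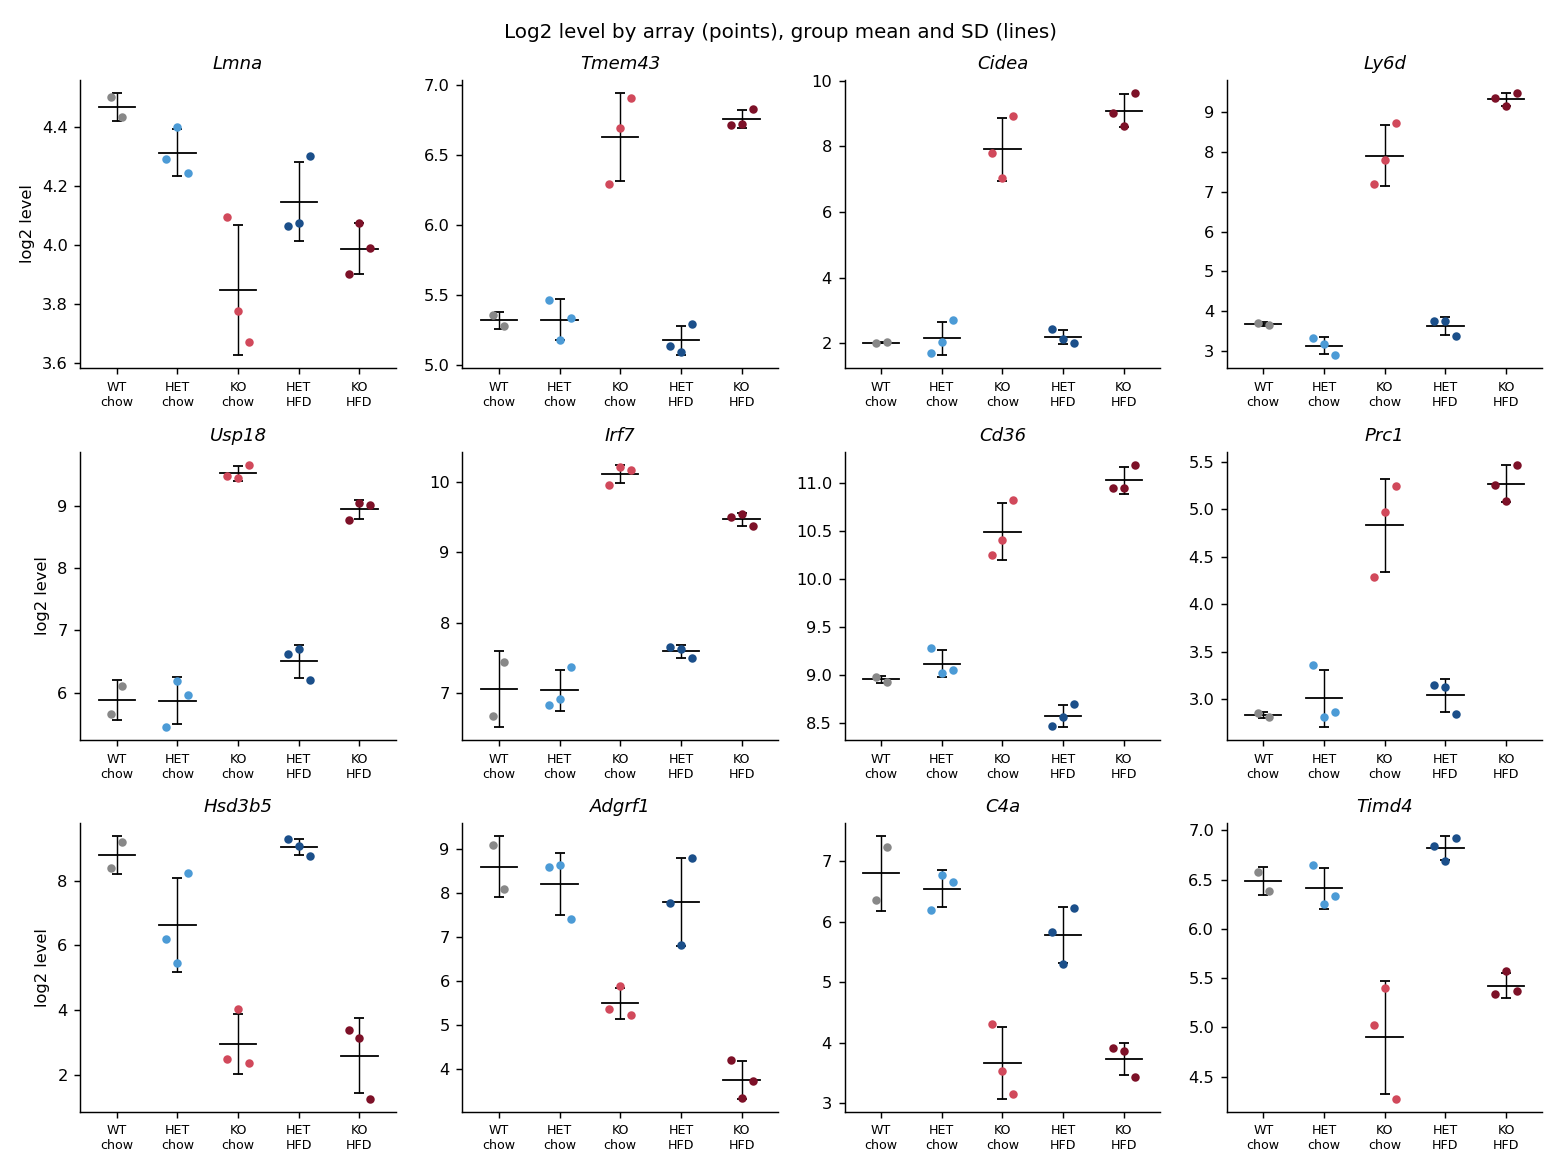
Log2 level (y axis) of 12 genes in each array (points) by genotype and diet (x axis), with the group mean and SD as lines (n = 2 for WT, 3 for every other group). KO and HET points overlap for Lmna on HFD, and for the 11 other genes all 6 KO points lie on one side of all 6 HET points.

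Many of the shared rises belonged to the interferon response. To show what these genes have at their starts, RefSeq promoter sequences (GRCm38.p6, 250 bases before the gene start, both strands) were searched for the core of the interferon-stimulated response element (ISRE), GAAANNGAA, which reads TTCNNTTTC when it lies on the other strand. Of the 40 genes called in both diets that stood in the interferon, sensor, GTPase or antigen lists, 33 had a promoter entry and 14 of these held a match. Shown are the 7 genes with 2 or more matches, which may overlap one another. Each sequence is the gene's own strand, 5′ to 3′, with the matches in capitals and up to 15 bases on either side.
Isg15: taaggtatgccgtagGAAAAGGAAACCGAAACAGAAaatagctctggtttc
Ifit1: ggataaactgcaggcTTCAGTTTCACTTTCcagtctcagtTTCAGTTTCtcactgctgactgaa
Oas1g: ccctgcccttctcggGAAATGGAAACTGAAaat
Oas3: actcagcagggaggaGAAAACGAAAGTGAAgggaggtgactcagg
Bst2: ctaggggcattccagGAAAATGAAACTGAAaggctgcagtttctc
Gbp3: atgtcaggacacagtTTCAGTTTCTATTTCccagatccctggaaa
Irgm1: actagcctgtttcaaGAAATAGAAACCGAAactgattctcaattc
These windows lie at chr4:156200861-156200911 (minus strand) for Isg15, chr19:34640765-34640828 (plus) for Ifit1, chr5:120887614-120887646 (minus) for Oas1g, chr5:120777705-120777749 (minus) for Oas3, chr8:71537573-71537617 (minus) for Bst2, chr3:142559985-142560029 (plus) for Gbp3 and chr11:48871421-48871465 (minus) for Irgm1. The matches begin 18 bases before the start in Oas1g, 78 in Isg15 and 130 in Bst2. Isg15 and Ifit1 held 3 matches each, in Isg15 as 1 overlapping run.

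The match was found in 42.1% of the interferon-stimulated effectors with an entry (8 of 19), in 17.3% of the genes higher in both diets (32 of 185) and in 7.97% of all tested genes (1354 of 16990). Outside the interferon-related lists, 11.8% of the genes higher in both diets held it (18 of 152). Those lists leave out some relatives of their members, such as Gbp9, Gbp10 and Oas1b. The share was 5.26% among the mitosis genes (1 of 19). Among the genes lower in both diets it was 15.2% (5 of 33), which became 6.06% when the window was shortened to 200 bases. A second motif, the antioxidant response element core TGACNNNGC, was present in 16.2% of the genes higher in both diets (30 of 185), in 31.2% of the NRF2 list (5 of 16) and in 12.3% of tested genes. It was also present in 24.2% of the genes lower in both diets (8 of 33) and 21.1% of the mitosis genes (4 of 19). A match is a stretch of letters and not a measured binding site.

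The interferon-stimulated effectors, proteins that block viral RNA, translation or budding, all rose: 27 of 27 measured genes were called in the mean and 22 on both diets, with a median difference of 1.55, 1.70 on chow and 1.33 on HFD. Usp18 removes ISG15 from proteins and restrains signalling of the type I interferon receptor. It stood at 5.45, 6.19 and 5.96 in HET and 9.48, 9.44 and 9.67 in KO on chow, and at 6.62, 6.70 and 6.21 in HET and 8.77, 9.04 and 9.02 in KO on HFD. Every KO liver lay more than 2 log2 units above every HET liver, and the mean rise was 3.05 ± 0.14 (adjusted p = 5.66e-08), or 8.29-fold. Isg15, the ubiquitin-like protein that Usp18 removes, read 5.49, 5.91 and 5.36 in HET and 8.24, 8.38 and 8.22 in KO on chow, and 5.78, 6.07 and 6.33 in HET and 7.76, 7.53 and 7.43 in KO on HFD. The groups were again apart on each diet, with a rise of 2.10 ± 0.12 (adjusted p = 3.61e-07). The 2 further genes with 2 or more ISRE matches and the largest rises, Oas1g (2′-5′ oligoadenylate synthetase) and Ifit1 (binder of foreign RNA caps), rose by 2.89 ± 0.33 (adjusted p = 1.47e-04) and 2.85 ± 0.19 (adjusted p = 1.35e-06). Oas3 rose by 1.42, and Bst2, the tetherin that holds virions at the cell surface, by 1.11. Ifi27l2b (4.31 ± 0.18), Oasl2 (3.38 ± 0.19) and Xaf1 (2.05 ± 0.11) also rose on both diets.

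Among genes upstream of these effectors the counts were uneven. Of 17 nucleic acid sensors and adaptors 14 rose, 6 of them on both diets, with a median of 0.88. Dhx58 (LGP2), Ddx58 (RIG-I) and Ifih1 (MDA5), helicases that recognise double-stranded RNA, rose by 1.75 ± 0.12, 1.16 ± 0.10 and 1.08 ± 0.10, and Zbp1, a sensor of Z-form nucleic acid, by 2.24 ± 0.20, each on both diets. Sting1, the adaptor for cytosolic DNA, rose in the mean by 0.62 ± 0.14 (adjusted p = 0.0141), whereas the DNA sensor Cgas (0.05 ± 0.12, adjusted p = 0.865) and the RNA adaptor Mavs (-0.16 ± 0.08, adjusted p = 0.251) were not called. Irf7, the transcription factor that amplifies interferon production, read 6.83, 6.91 and 7.37 in HET and 9.96, 10.21 and 10.17 in KO on chow, and 7.65, 7.63 and 7.49 in HET and 9.50, 9.54 and 9.37 in KO on HFD. Its ranges were far apart on both diets, and it rose by 2.48 ± 0.13 (adjusted p = 2.84e-07). Of 13 receptors, JAKs, STATs and IRFs, 4 rose in the mean and Irf7 alone was called on both diets. Irf9, a transcription factor that binds the ISRE, rose by 1.08 on chow and differed by 0.23 on HFD (adjusted p = 0.373). Its mean of 0.65 ± 0.09 (adjusted p = 8.09e-04) turned to -0.21 (adjusted p = 0.772) with the age term. In the mean, limma called none of 9 interferon ligands and none had an unadjusted p under 0.05. On HFD alone Ifng, which encodes interferon gamma, was lower (-0.64 ± 0.17, adjusted p = 0.0403), with means of 2.57 in HET and 1.93 in KO close to the array medians. In all, 5 of the 9 lay below the array medians, where the arrays cannot follow a fall and leave the size of a rise uncertain.

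Genes that interferon gamma also induces rose too. Among 9 GBP and IRG GTPases, which attack vacuoles of intracellular pathogens, 7 rose, and Gbp3 (2.30 ± 0.18), Igtp (1.46 ± 0.19), Gbp7 (1.29 ± 0.12) and Irgm1 (0.97 ± 0.12) did so on both diets. Without A2 or C2, 2 members were called on both diets. Of 17 genes of antigen processing and presentation 13 rose, 7 of them on both diets, with a median of 0.70. The 7 became 4 without I1, A2, C2 or C4 and 1 without F1 and F2 together. Ubd, a ubiquitin-like tag that sends proteins to the proteasome, read 3.28, 3.27 and 3.22 in HET and 6.58, 6.89 and 7.62 in KO on chow, and 2.94, 2.94 and 3.46 in HET and 8.09, 7.19 and 8.89 in KO on HFD. No KO value came near a HET value, and the rise was 4.36 ± 0.25 (adjusted p = 4.15e-07). Smaller rises on both diets were those of Psmb8 (0.93 ± 0.12), a catalytic subunit of the immunoproteasome, Psme1 (0.55 ± 0.07) and H2-T23 (0.81 ± 0.09). Some RefSeq neighbours rose together, such as Psmb9, Tap1 and Psmb8, Gbp7 and Gbp3, Oas2 and Oas3, and Oasl1 and Oasl2. Probes of close relatives, such as the Gbp, Oas and Oasl pairs, can also take up each other's signal. In all, 29 of the 239 shared rises that could be placed among 22139 genes in RefSeq order lay beside another one. Whether this is more than for genes spread without order was not tested.

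The rise was larger on chow than on HFD in 23 of the 27 effectors and in 6 of the 7 called GTPases. No effector passed the limma test of the difference between the diets, although 12 had an unadjusted p under 0.05, against 2187 of 22180 genes (9.86%). With the age term the effectors' median was 0.99 and 7 of 27 were called. It left 0 of 17 sensors, 0 of 13 receptors and factors, 0 of 9 GTPases and 1 of 17 antigen genes called. The medians of these lists were then 0.68, 0.09, 0.73 and 0.53. Single genes with the age term were as follows. Usp18 was 1.79 (adjusted p = 0.029), Irf7 1.36 (adjusted p = 0.0627) and Isg15 0.79 (adjusted p = 0.193).

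**Figure D4:**
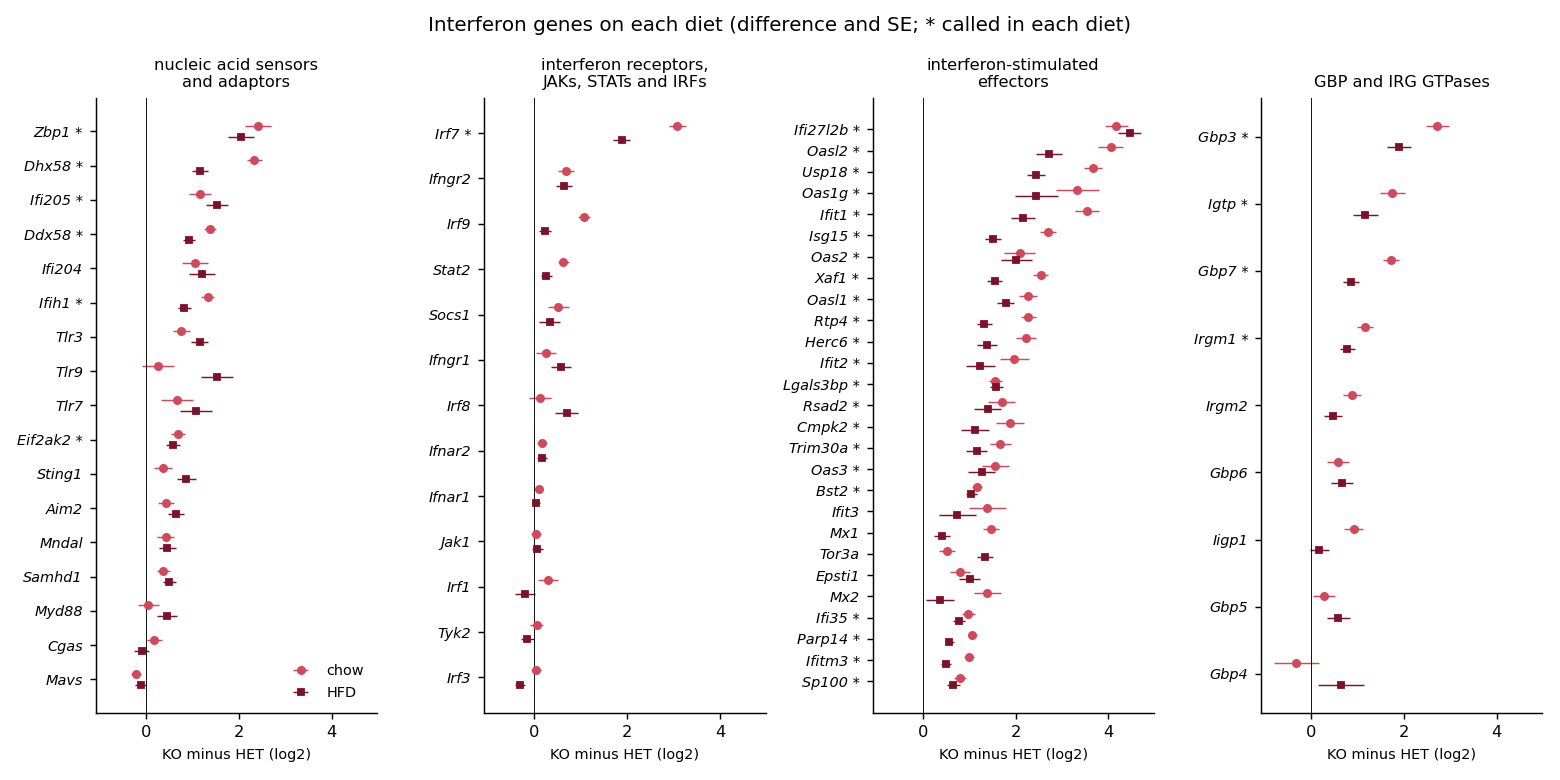
KO minus HET difference (x axis, log2) with its standard error on chow (circles) and HFD (squares) for the measured members of 4 gene lists (rows). An asterisk marks genes called on both diets: 22 of 27 effectors, 6 of 17 sensors, 4 of 9 GTPases and 1 of 13 receptors and factors.

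Lipid droplet genes held the largest single rise. Cidea encodes a protein that enlarges lipid droplets by fusing them and is scarce in lean liver. It read 1.72, 2.03 and 2.71 in HET and 7.79, 7.03 and 8.93 in KO on chow, and 2.44, 2.13 and 2.02 in HET and 9.02, 8.63 and 9.63 in KO on HFD. HET values lay at the array medians of 2.21 to 2.30, so the rise of 6.33 ± 0.28 (adjusted p = 5.66e-08) starts from a level these arrays cannot resolve, and its size is uncertain. Its relative Cidec stood between 2.85 and 4.87 in the 6 HET livers and between 6.70 and 9.62 in the 6 KO livers, a rise of 4.44 ± 0.40 (adjusted p = 2.26e-05). Of 19 droplet proteins and lipases 7 rose and Plin2, the droplet coat protein of most cells, was the third to do so on both diets (0.61 ± 0.10). Without F1 and F2 together 3 members were called, and with the age term also 3. Among 23 genes of fatty acid uptake and triglyceride synthesis 9 rose, against 5 higher and 1 lower with the age term. Cd36, a fatty acid transporter at the plasma membrane, read 9.28, 9.03 and 9.05 in HET and 10.25, 10.41 and 10.83 in KO on chow, and 8.47, 8.56 and 8.70 in HET and 10.96, 10.95 and 11.20 in KO on HFD. All KO values were the higher ones, and the rise of 1.92 ± 0.10 (adjusted p = 2.99e-07) was 3.03 with the age term. Mogat1, which makes diacylglycerol, rose by 2.69 ± 0.23 from HET levels below the array medians. Of 17 PPAR alpha and fatty acid oxidation genes 8 rose, and Ehhadh, an enzyme of peroxisomal oxidation, was the member called on both diets (1.09 ± 0.09). Of 14 lipogenic genes, in limma 0 were called higher and 4 lower, none on both diets, and 5 had an unadjusted p under 0.05. Srebf1 (-0.76 ± 0.19, adjusted p = 0.0215) and Mlxipl (-0.38 ± 0.09, adjusted p = 0.0123), transcription factors that drive this pathway, were lower, and without H2 or C4 the 4 falls became 1.

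NRF2 targets, enzymes that detoxify electrophiles and make glutathione, rose in 13 of 19 cases, 5 of them on both diets, with a median of 0.45. Without F2, H2 or I1 the 5 became 3. With the age term 9 of the 19 were called higher, at a median of 1.01. Slc7a11, which imports cystine, stood between 1.84 and 2.55 in HET and between 4.22 and 6.73 in KO livers (3.60 ± 0.26, adjusted p = 2.88e-06), and a second, dimmer probe set of it was not called (0.11). Its HET means, 2.152 on chow and 1.987 on HFD, lay below the array medians, so the size of its rise is uncertain. Cbr3, a carbonyl reductase, rose by 3.66 ± 0.37 and Abcc4, an exporter of organic anions, by 2.54 ± 0.15. Nqo1, a quinone reductase, read 6.72, 6.59 and 6.31 in HET and 7.47, 7.86 and 8.26 in KO on chow, and 5.28, 5.20 and 5.15 in HET and 8.54, 8.27 and 8.94 in KO on HFD. Its HET level was lower on HFD than on chow while its KO level was higher, so that the rise of 1.33 on chow and 3.38 on HFD differed between the diets.

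Mitosis genes formed the second list in which nearly every member rose, 22 of 23 in the mean with a median of 1.23. On both diets 12 were called, which became 5 without F2, 6 without H2 and 5 without I1. With the age term 4 of the 23 were called higher, at a median of 1.37. Prc1, which bundles microtubules at the spindle midzone, read 3.36, 2.81 and 2.87 in HET and 4.29, 4.97 and 5.24 in KO on chow, and 3.15, 3.13 and 2.84 in HET and 5.25, 5.09 and 5.47 in KO on HFD. The KO values lay above all HET values but remained low for these arrays, and the rise was 2.03 ± 0.15 (adjusted p = 5.08e-06). Cdc20, an activator of the anaphase-promoting complex, rose by 1.84 ± 0.18, equally on chow (1.84) and HFD (1.84). Nusap1 rose by 1.29 ± 0.11 from HET levels below the array medians, and Ect2, a regulator of cytokinesis, by 2.02 ± 0.20, of which 0.79 on chow was not called. Of 16 DNA replication genes 10 rose and 1 fell in the mean, and none was called on both diets. Among 17 p53 targets 9 rose, and the death receptors Tnfrsf10b (2.09 ± 0.23) and Eda2r (2.20 ± 0.19) did so on both diets. The HET means of Eda2r, 2.265 on chow and 2.234 on HFD, lay at the array medians, so the size of its rise is uncertain. Cdkn1a, the cell cycle inhibitor p21, rose by 2.85 ± 0.46 (adjusted p = 0.00152). It varied within HET on chow, at 7.07, 7.06 and 4.54, against 7.28, 7.28 and 9.44 in KO, and was therefore not called on chow alone. Arrays F1 and F2 were the 2 high HET values.

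Markers of monocyte-derived and lipid-associated macrophages were higher in KO liver in 9 of 11 cases, with a median of 1.48. With the age term 3 were called higher, at a median of 1.61. Cx3cr1, a chemokine receptor of monocytes, read 2.86, 2.52 and 2.87 in HET and 5.43, 5.43 and 5.20 in KO on chow, and 2.82, 3.38 and 2.93 in HET and 5.93, 5.70 and 6.11 in KO on HFD. All 6 KO values lay above 5 and all 6 HET values below 4, and the rise was 2.74 ± 0.12 (adjusted p = 5.56e-08). Ly6c2, a surface protein of inflammatory monocytes, rose by 2.64 ± 0.25 and Trem2, a lipid receptor, by 1.64 ± 0.16, both on both diets. The HET means of Ly6c2, 2.164 on chow and 2.025 on HFD, lay below the array medians, so the size of its rise is uncertain. The list's level, the mean of its members after each was centred over the arrays, was -0.95 to -0.20 in HET and 0.15 to 0.91 in KO on chow and -0.76 to -0.29 in HET and 0.80 to 1.23 in KO on HFD. Of 13 markers of resident Kupffer cells 2 rose and 2 fell (15.4% each, against 6.52% and 2.9% of all genes). Above 0 were 10 of 13, with a median of 0.14, or 0.40 on HFD. The rises were those of the complement subunits C1qb (0.66 ± 0.15, adjusted p = 0.0143) and C1qa (0.62 ± 0.17), and the latter lost its call without any of 9 of the 14 arrays. Timd4, a phosphatidylserine receptor of embryonic Kupffer cells, read 6.65, 6.25 and 6.34 in HET and 5.02, 5.40 and 4.28 in KO on chow, and 6.84, 6.69 and 6.93 in HET and 5.33, 5.57 and 5.37 in KO on HFD. Its groups did not overlap on either diet (-1.45 ± 0.16, adjusted p = 8.51e-05). Cd163, the haemoglobin scavenger receptor, changed by -2.08 ± 0.32 (adjusted p = 0.00113), while Clec4f (0.10 ± 0.13, adjusted p = 0.735) and Vsig4 (0.14 ± 0.13, adjusted p = 0.609) were not called.

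Markers of other cell types gave mixed counts. Of 10 cholangiocyte and ductular markers 5 rose and of 17 stellate cell markers 4 rose and 5 fell, the falls numbering 3 without F1, H2, A2 or B1 and 2 without C4. Of 28 genes of extracellular matrix and TGF beta 13 rose, 5 on both diets, among them Lum (1.30 ± 0.13), a collagen-binding proteoglycan, and Timp2 (0.78 ± 0.10), an inhibitor of metalloproteinases. Without F2 or I1, 2 members were called on both diets, and without P1 or H2, 3 were. With the age term 1 of the 28 was called higher, at a median of 1.03 against 0.57 without it. In the mean, limma called 0 of 21 lymphocyte, 0 of 13 neutrophil and 0 of 19 endothelial markers, and at an unadjusted p under 0.05 there were 6, 1 and 4. On HFD alone the lymphocyte genes Cd8b1 (1.33 ± 0.35, adjusted p = 0.0341) and Ncr1 (1.41 ± 0.39, adjusted p = 0.0461) were higher and the endothelial Stab2 was lower (-0.40 ± 0.11, adjusted p = 0.0461). Without F1 and F2 together 2 lymphocyte markers were called higher in the mean. Of 6 genes of fat, pancreas and red cells 1 rose, the elastase Cela1 (1.61 ± 0.24, adjusted p = 0.00102). The part of cell numbers in the rises of interferon, mitosis or matrix genes was not tested.

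Male-biased liver genes had the lowest median of the 41 lists. Of 19 measured, 11 fell and 2 rose, with a median of -1.08, -0.79 on chow and -1.31 on HFD, and 4 fell on both diets. With the age term 2 were called lower and 0 higher, at a median of -1.11. Hsd3b5, a steroid reductase expressed in male liver, read 6.20, 5.44 and 8.25 in HET and 2.47, 4.03 and 2.35 in KO on chow, and 9.29, 9.09 and 8.78 in HET and 3.38, 3.14 and 1.25 in KO on HFD. The highest KO value stayed below the lowest HET value, although HET on chow spanned nearly 3 log2 units with F1 and F2 the low ones. The difference was -5.07 ± 0.49 (adjusted p = 3.68e-05), of uncertain size because several KO values were near or below the array medians. It was -7.34 with the age term (adjusted p = 0.0249). Serpina4-ps1 fell by 2.64 ± 0.34 on the log2 scale. C4a, the sex-limited complement gene, read 6.20, 6.78 and 6.66 in HET and 4.31, 3.54 and 3.15 in KO on chow, and 5.83, 5.30 and 6.22 in HET and 3.90, 3.86 and 3.42 in KO on HFD. Its groups were apart on both diets (-2.47 ± 0.23, adjusted p = 2.38e-05). Cyp4a12a, a male-biased fatty acid hydroxylase, went against its list with a rise of 1.20 ± 0.15 on both diets. Hsd3b2 (-1.72 ± 0.23) and Hsd3b3 (-1.49 ± 0.13) fell with Hsd3b5, and these close relatives may not be separate measurements.

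Female-biased genes rose in 8 of 25 cases, with a median of 0.07 on chow and 0.69 on HFD. On both diets Gas6, a ligand of TAM receptors, rose (1.14 ± 0.13), and so did Cd36, while Cyp2a4, a cytochrome that hydroxylates steroids, rose by 2.42 ± 0.37 in the mean. Of 13 genes of growth hormone and IGF1 signalling 4 fell and 1 rose in the mean, and none was called on both diets. Among the falls were Igf1 (-0.46 ± 0.09) and its carrier subunit Igfals (-0.68 ± 0.12). The falls numbered 2 without F1 and F2 together and 0 with the age term. Onecut1, a hepatocyte transcription factor, was called in the mean at -1.02 ± 0.28 (adjusted p = 0.0389), but this average hides a fall of 2.78 on chow and a value of 0.73 on HFD (adjusted p = 0.333). It is no shared change, and its call was lost without G1, N1, F1, F2, H1, H2, I1, A2, B1, C2 or C4.

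**Figure D5:**
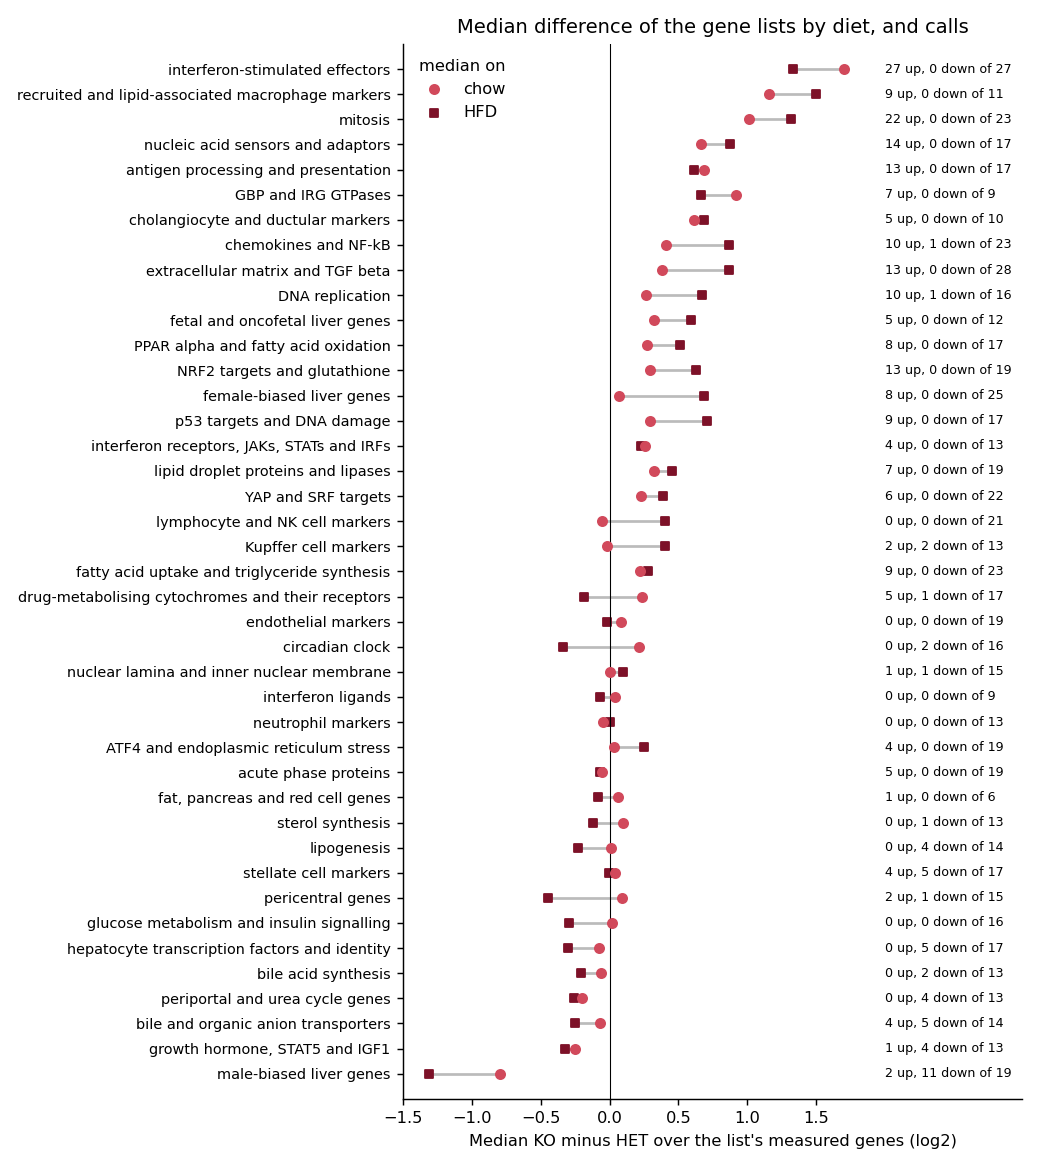
Median KO minus HET difference (x axis, log2) of 41 gene lists (rows) on chow (circles) and HFD (squares), with the number of genes called over both diets beside each. Interferon-stimulated effectors, recruited macrophage markers and mitosis genes have the highest medians, and male-biased liver genes the lowest.

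Hepatocyte transcription factors and identity genes had 5 of 17 members lower in the mean, none on both diets, with a median of -0.20. Besides Onecut1 these were Onecut2 (-0.52 ± 0.10), Hpd (-0.40 ± 0.08) and Tat (-0.35 ± 0.09), enzymes of tyrosine breakdown, and Foxa1 (-0.64 ± 0.17). The 5 became 3 or fewer without F1, F2, H1, H2, I1, A2, B1, C2 or C4. Hnf4a, a central regulator of hepatocyte identity, was not called in the mean (-0.14 ± 0.07, adjusted p = 0.259).

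Zonated and other metabolic genes gave mixed counts. Of 13 periportal and urea cycle genes 4 fell, and Asl, which makes arginine, did so on both diets (-0.53 ± 0.07), while Cps1, the first enzyme of the cycle, changed by -0.37 ± 0.07 in the mean. Of 15 pericentral genes 2 were called higher and 1 lower (13.3% and 6.67%, against 6.52% and 2.9% of all genes). Their median was -0.16, with 4 of 15 above 0. Rhbg, an ammonium transporter of pericentral hepatocytes, rose on both diets by 2.86 ± 0.24 (adjusted p = 1.11e-05). It was at 5.05 to 7.04 in the 6 HET livers and 8.25 to 9.01 in the 6 KO livers. In the mean, limma called none of 16 genes of glucose metabolism and insulin signalling, and 6 had an unadjusted p under 0.05. On HFD alone the insulin receptor Insr (-0.47 ± 0.11, adjusted p = 0.0181) and the liver glycogen phosphorylase Pygl (-0.52 ± 0.14, adjusted p = 0.0403) were lower. Among acute phase proteins 5 of 19 rose (3 without F2, I1 or C4), and Orm2 (2.49 ± 0.16) and Orm3 (4.09 ± 0.67), copies of alpha-1-acid glycoprotein, were called on both diets. Orm3 varied from 1.77 to 5.12 among HET livers and was called on both diets in 5 of the 14 fits without 1 array.

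Several of the largest shared changes lay outside every list, as did 159 of the 240 rises. The 159 include relatives of listed interferon genes, such as Gbp9, Gbp10 and Oas1b. Ly6d, a surface protein anchored by glycosylphosphatidylinositol, read 3.32, 3.18 and 2.90 in HET and 7.20, 7.80 and 8.73 in KO on chow, and 3.75, 3.76 and 3.38 in HET and 9.35, 9.14 and 9.47 in KO on HFD. The gap between the highest HET and the lowest KO liver was over 3 log2 units, and the rise was 5.23 ± 0.20 (adjusted p = 3.81e-08), or 37.6-fold. Apela, a secreted peptide that activates the apelin receptor, rose by 4.49 ± 0.24 (adjusted p = 3.06e-07) from HET levels of 1.29 to 2.16, at or below the array medians. Anxa13, an annexin that binds membranes through calcium, rose by 4.19 ± 0.22 (adjusted p = 2.43e-07) and Pls1, an actin-bundling plastin, by 3.42 ± 0.44 (adjusted p = 3.22e-04). Sprr1a, a component of the cornified envelope of skin, rose by 3.37 ± 0.22 (adjusted p = 1.47e-06), also from HET levels near the array medians. In 30 of the 240 shared rises the HET mean was below the highest array median on both diets, which leaves the fold of those genes uncertain. Elapor1 (3.52 ± 0.37) and Spink1 (3.40 ± 0.53), a trypsin inhibitor, were as large in the mean but were not called on chow.

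Among the falls outside the lists was that of Adgrf1, an adhesion receptor coupled to G proteins. It read 8.57, 8.63 and 7.39 in HET and 5.37, 5.89 and 5.22 in KO on chow, and 7.77, 6.81 and 8.79 in HET and 4.20, 3.35 and 3.73 in KO on HFD. KO values were the lower ones throughout, with a difference of -3.37 ± 0.33 (adjusted p = 3.84e-05), and -5.09 with the age term. Adh6-ps1 changed by -3.48 ± 0.52 (adjusted p = 9.44e-04), though its HET value of 6.20 on chow was below the KO value of 6.71 on HFD. Steap2, a metalloreductase, changed by -1.61 ± 0.17, and Etnppl, which degrades phosphoethanolamine, by -1.54 ± 0.19, both on both diets. Serpina11 (-1.47 ± 0.17) fell on both diets and Serpina1e (-1.40 ± 0.12) in the mean, where the difference was -0.67 on chow (adjusted p = 0.0745) and -2.14 on HFD.

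Whether the genotype difference itself changed with diet was tested for every gene, and 8 of 22180 passed (0.0361%). Of these, 5 were also called in the mean and 3 on both diets, namely Slc16a5, Gstm3 and Nqo1. In limma the count was 0 without F2 and 0 without H2, where 1891 and 1794 genes had an unadjusted p under 0.05, against 2187 with all arrays. It ranged up to 43 without other arrays. A gene that did not pass was not thereby shown to respond equally on the 2 diets.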

How the data were processed

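Liver RNA of 14 mice, 1 mouse per array, was read on Affymetrix whole-transcript arrays from 400 ng of RNA, per the labels' protocols. The deposited table holds log2 intensities, 1 per probe set and array. The authors made them with RMA, per the submitters' processing notes, which also name limma; versions and any batch adjustment are not given in the sources used here. Array medians lay between 2.21 and 2.30, and the number of arrays limits the precision.

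Of 41345 probe sets, 23521 carried 1 gene symbol in the platform annotation, 1814 several and 16010 none. Tests used the first kind, and the probe set with the highest mean over all 14 arrays stood for a gene, which left 22180 genes (1082 had several). A model with 1 mean per genotype and diet was fitted to the 14 arrays with limma 3.58.1 in R 4.3.3 (residual degrees of freedom 9, prior 3.83), with contrasts for KO minus HET on chow, on HFD, their mean and their difference. Here ± gives the standard error, and p-values were adjusted by Benjamini and Hochberg over all genes. The labels do not say whether the mice of a group were littermates. The procedure was tested on simulated data.

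The members and the 41 gene lists (752 entries, 679 measured) were chosen with earlier results of these data known. Named are Lmna; the 15 largest rises and falls among genes called in the mean in every fit without 1 array and separated in each diet; up to 4 called members per list by smallest p; and the called genes with the smallest interaction p. The largest changes leave out predicted genes, small RNAs and antigen receptor segments. Ifit1, Oas1g, Oas3, Bst2, Sting1, Cgas, Ifng, Cd8b1, Ncr1, Stab2, Insr, Pygl, Hnf4a, Mavs, Clec4f, Vsig4, Psmb9, Tap1, Oas2 and Oasl1, Tmem79 and Tnfaip8l1 were named after their values were seen. Gbp9, Gbp10 and Oas1b were likewise named after their values were seen. Promoter sequences are RefSeq's, GRCm38.p6. Alternatives were a fit of 12 arrays with genotype and diet, the same with age, array weights, a trended and robust prior, a filter on dim genes, other probe set rules, scalings, pooled chow controls, a block by array letter, stricter thresholds, and leaving out each array or F1 and F2 together, the last and 1 scaling chosen after seeing the data.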

Additional observations from a re-analysis of the deposited data

Results flagged for a closer look

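For 5 genes called in the mean, the genotype difference itself differed between the diets in limma's interaction test (Benjamini-Hochberg over 22180 genes), and in each it was larger on HFD than on chow. For Slc16a5, a monocarboxylate transporter family member, the HFD minus chow difference was 2.61 (adjusted p = 0.00908), and a second probe set of the gene rose less in the mean (1.24 against 2.24). For the quinone reductase Nqo1 it was 2.05 (adjusted p = 0.045), for the glutathione transferase Gstm3 1.82 (adjusted p = 0.045), for Guca2b, the gut peptide uroguanylin, 2.45 (adjusted p = 0.0375) and for Pqlc3 1.39 (adjusted p = 0.0272). In Slc16a5, Gstm3 and Nqo1 the HET level was lower on HFD than on chow, by comparison of group means of 6.57 and 5.17, 9.98 and 8.17, and 6.54 and 5.21, while KO means stood at 7.50 and 8.71, 10.95 and 10.96, and 7.86 and 8.58. Guca2b and Pqlc3 had HET means near the array medians. None of the interaction tests passed at an adjusted p under 0.05 when F2 or H2 was left out.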

How the results depend on the processing

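Against 1447 higher and 644 lower genes in the mean, 240 and 42 on both diets and 8 with a diet-dependent difference, the age term left 279 higher and 78 lower, and an adjusted p under 0.01 left 787, 214, 100, 11 and 1. At least 1.5-fold, 944 were higher and 178 lower. Without F1 and F2 together there were 372 lower genes in the mean, 88 higher and 11 lower on both diets, and 1 with a diet-dependent difference. Arrays centred on the median of all probe sets gave 427 lower in the mean and 20 diet-dependent, and centring on probe sets with 1 symbol gave 2684 lower in the mean and 97 lower on both diets. Genes lower on both diets numbered 70 after a filter on dim genes and 72 with the chow controls pooled. Diet-dependent genes numbered 24 with a trended and robust prior, 29 with array weights, 27 after the dim filter, 5 with the array letter as a block and 15 with pooled chow controls. Without single arrays, lower genes in the mean ranged from 372 (without I1; 416 without C4) to 677, higher on both diets from 126 to 270, lower on both diets from 18 to 43, and diet-dependent genes from 0 to 43. The cause was not tested for any of these shifts, beyond the fewer arrays or stricter thresholds themselves.

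Lmna kept its sign but not its call in the fit of 12 arrays with terms for genotype and diet alone (-0.31), with the age term (-0.012), with the trended and robust prior (-0.31), centred on the median of all probe sets (-0.27) and without F1 and F2 (-0.28), and ranged from -0.37 to -0.27 without single arrays. With the age term 3 named genes changed sign, Irf9 (-0.21, adjusted p = 0.772), Onecut1 (2.30, adjusted p = 0.27) and Cry1 (0.032, adjusted p = 0.986), 89 of 149 named genes lost their call and 57 kept it; the cause was not tested. No other named gene changed sign under any alternative run.

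No paired analysis was possible because each array name (a letter and a number, such as F1 or H2) is used once, no letter occurs in more than 1 group, and nothing in the labels ties arrays across groups. The array letter had a correlation of 0.05 as a random block. The number of arrays, 3 per genotype and diet, and the age gap limit the precision of these values.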
